A study of Homo sapiens with 4 samples.

Results

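The genes described here are 31 genes of blood vessels and early blood, chosen by name from a list of 16 endothelial and 15 blood genes, among 18640 genes measured. Each gene's value is the mean log2 signal of its probesets (small groups of probes, each within an exon) that the platform annotation ties to its symbol alone. By that rule 28 genes had a value, all 16 endothelial genes and 12 of the 15 blood genes. HBG1 and HBG2, which encode the gamma globins of the fetus, shared 15 probesets with each other and had none of their own. HBA1, which encodes alpha globin, shared its 6 probesets with HBA2. These 3 genes therefore have no value here.

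BG01V, a line of human embryonic stem cells known for its variant karyotype, was made to form embryoid bodies, clumps of cells that differentiate outside the embryo, and their RNA was measured. The embryoid bodies of 2 arrays received TBBD at 10 µM for 48 h, and those of the other 2 received the vehicle DMSO, with treatment generally falling between day 2 and day 4. TBBD, another name for the plant polyphenol ellagic acid, is described by the series as an inhibitor of arginine methylation on histone H3. Each treatment has a replicate 1 and a replicate 2, and the labels do not say what the number stands for or whether the replicates were separate cultures. All arrays share 1 cell line, and the spread that enters each p-value is that between these arrays alone, which may be technical.

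Endothelial cells line blood vessels, and in the embryo they arise from mesoderm alongside the first blood cells. The receptor KDR receives VEGF, ETS-family factors such as ERG keep the vascular program running, and a junction built on CDH5 and PECAM1 holds the cells together. A subset, the hemogenic endothelium, turns on RUNX1 and gives rise to blood, in which GATA1 and KLF1 drive red cell genes and SPI1 drives myeloid genes. CD34 marks both blood progenitors and endothelium.

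Promoter windows of 4 endothelial genes are shown to set genes that differed between the replicate numbers (KDR, TIE1 and ERG) beside one that was not called (ROBO4). Each window runs from 250 bases before to 50 bases after the gene's start on the gene's own strand, and comes from RefSeq on GRCh38.p14. Capitals mark matches on either strand to 3 short motifs, AGGAAG for ETS factors, AGATAA for GATA factors and AACAAT for SOX factors. The KDR window lies at chr4:55125546-55125845 on the minus strand, TIE1 at chr1:43300732-43301031 on the plus strand, ERG (the first of its 4 windows) at chr21:38498428-38498727 on the minus strand, and ROBO4 at chr11:124897816-124898115 on the minus strand.
KDR: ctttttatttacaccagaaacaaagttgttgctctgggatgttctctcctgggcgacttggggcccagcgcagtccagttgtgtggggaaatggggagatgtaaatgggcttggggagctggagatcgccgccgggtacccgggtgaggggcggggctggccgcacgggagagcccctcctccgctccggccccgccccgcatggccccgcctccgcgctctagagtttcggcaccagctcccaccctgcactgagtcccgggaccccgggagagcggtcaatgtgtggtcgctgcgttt
TIE1: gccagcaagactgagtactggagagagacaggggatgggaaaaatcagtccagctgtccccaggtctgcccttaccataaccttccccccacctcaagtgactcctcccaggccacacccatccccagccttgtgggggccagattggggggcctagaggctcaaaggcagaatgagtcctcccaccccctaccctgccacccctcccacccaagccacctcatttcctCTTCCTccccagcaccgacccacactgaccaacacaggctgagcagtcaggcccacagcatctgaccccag
ERG: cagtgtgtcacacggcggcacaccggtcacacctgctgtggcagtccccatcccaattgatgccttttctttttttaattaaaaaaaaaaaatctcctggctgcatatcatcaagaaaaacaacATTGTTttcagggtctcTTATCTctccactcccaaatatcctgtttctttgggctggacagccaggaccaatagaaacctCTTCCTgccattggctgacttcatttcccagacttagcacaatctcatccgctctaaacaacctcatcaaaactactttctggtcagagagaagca
ROBO4: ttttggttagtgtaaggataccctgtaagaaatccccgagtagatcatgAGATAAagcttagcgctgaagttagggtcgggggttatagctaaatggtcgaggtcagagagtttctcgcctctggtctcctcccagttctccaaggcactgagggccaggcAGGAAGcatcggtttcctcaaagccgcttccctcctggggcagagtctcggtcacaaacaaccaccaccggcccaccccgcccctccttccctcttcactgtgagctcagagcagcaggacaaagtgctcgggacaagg
The KDR window held none of the 3 motifs, TIE1 held 1 ETS match, this ERG window held 1 match to each, and ROBO4 held 1 ETS and 1 GATA match. Windows 3 and 4 of ERG, not shown, held none of the 3 motifs.

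Promoter windows were used for 16 of the 31 genes, 22 windows in all, with any on chr8 left out. AGGAAG was found in 14 of these 22 windows, against 33.6% of 35116 promoter windows of the same length. AGATAA was found in 5 and AACAAT in 3 of the 22 windows, against 10.3% and 10.1% of all windows. Windows 1 and 2 of ERG overlap almost fully and those of TEK in part, so a match can be counted in both. By gene, AGATAA was present for 4 of 16 (ERG, ROBO4, TAL1 and TEK) and AACAAT for 2 of 16 (ERG and TEK). In the same way, AGGAAG was present for 12 of 16. Genes differ in their number of windows, and no share by gene over all promoters was computed. The counts by gene therefore cannot be set against the shares of windows. Of the 9 genes called between the replicate numbers 5 had a window, KDR, TEK, TIE1, ERG and the blood gene CD34. AGGAAG was present for 2 of these 5 (TIE1 and ERG). Among genes not called, it was present for all 4 endothelial genes with a window (EGFL7, ROBO4, FLT1 and ENG). It was also present for 6 of 7 blood genes not called. A match is a description of letters and not of a bound site.

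Every gene of the set that passed the test did so between the replicate numbers, and none between the treatments. In replicate 2, 8 of the 16 endothelial genes were higher than in replicate 1 and 0 were lower, in limma's moderated test with Benjamini-Hochberg adjustment over all 18640 genes. Of all genes, 2.3% were called higher and 1.21% lower in replicate 2. The median log2 difference was 0.60 over the endothelial genes, 0.12 over the 12 blood genes and -0.0024 over all genes. Of the blood genes, 1 was called higher, CD34, and 0 were called lower. In these mixed aggregates, a change in the number of endothelial cells and a change in their RNA per cell cannot be told apart. The replicate number and any unrecorded difference in culture or handling that goes with it cannot be told apart either.

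**Figure D1:**
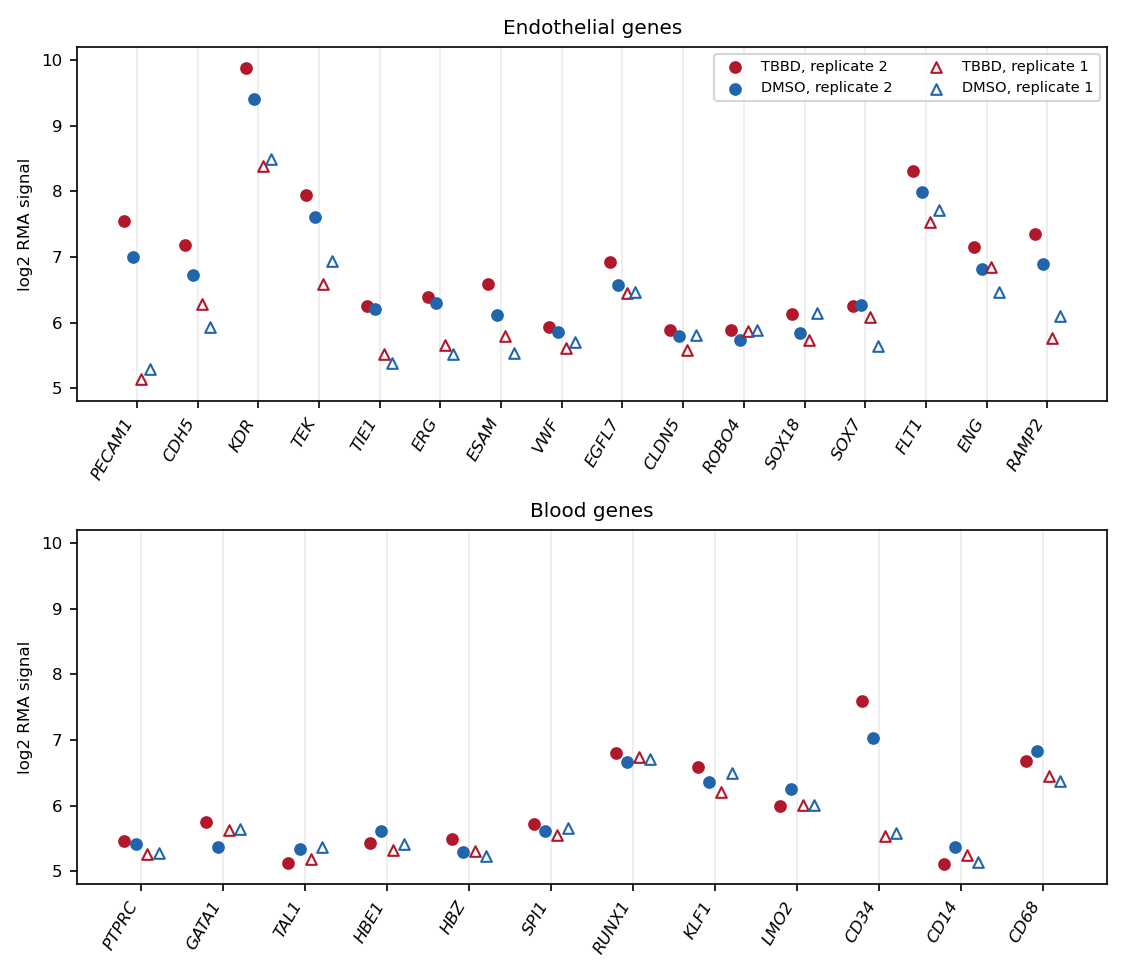
Log2 RMA signal of each measured endothelial gene (top) and blood gene (bottom) on the 4 arrays, with TBBD in red and DMSO in blue, replicate 2 as filled circles and replicate 1 as open triangles. PECAM1, KDR, RAMP2 and CD34 show both replicate 2 arrays well above both replicate 1 arrays, while most blood genes have their 4 points close together.

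Among junction and surface proteins, PECAM1 (CD31), an adhesion molecule of endothelial contacts, had log2 signals of 7.54 with TBBD and 7.00 with DMSO in replicate 2, against 5.14 with TBBD and 5.30 with DMSO in replicate 1. The difference in signal was 2.05 ± 0.175 (SE), and the groups did not overlap (limma adjusted p = 0.00246). CDH5, the cadherin of endothelial junctions, had 7.18 with TBBD and 6.73 with DMSO in replicate 2, against 6.28 and 5.93 in replicate 1. Its difference was 0.85 ± 0.12 (SE), or 1.80-fold (limma adjusted p = 0.0135). ESAM, an adhesion molecule at the same contacts, had 6.59 and 6.11 with TBBD and DMSO in replicate 2, against 5.80 and 5.53 in replicate 1. Its difference of 0.69 ± 0.12 (SE) was the smallest among the called endothelial genes (limma adjusted p = 0.0318).

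Other genes of the endothelial surface did not pass. CLDN5, a claudin of tight junctions, had 5.89 with TBBD and 5.80 with DMSO in replicate 2, against 5.57 and 5.81 in replicate 1. Its difference of 0.15 had a 95% confidence interval from -0.15 to 0.46. VWF, the clotting protein stored by endothelium, differed by 0.24 (interval -0.04 to 0.52) and did not pass, although both replicate 2 arrays lay above both replicate 1 arrays. ROBO4, a guidance receptor that stabilizes vessels, was the only endothelial gene with a lower mean in replicate 2, at -0.06 (interval -0.35 to 0.22).

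Of the receptors, KDR (VEGF receptor 2) had 9.87 with TBBD and 9.41 with DMSO in replicate 2, against 8.39 and 8.49 in replicate 1. The difference was 1.21 ± 0.155 (SE), or 2.31-fold (limma adjusted p = 0.0114). TEK, the angiopoietin receptor also called TIE2, had 7.95 and 7.60 with TBBD and DMSO in replicate 2, against 6.59 and 6.94 in replicate 1. Its difference was 1.01 ± 0.17 (SE, limma adjusted p = 0.0292). Its partner TIE1 differed by 0.78 ± 0.12 (SE, limma adjusted p = 0.0187), with 6.25 and 6.21 with TBBD and DMSO in replicate 2 against 5.52 and 5.39 in replicate 1. RAMP2, which joins the receptor CALCRL to bind adrenomedullin, differed by 1.19 ± 0.19 (SE), or 2.28-fold (limma adjusted p = 0.0229). It had 7.35 and 6.90 with TBBD and DMSO in replicate 2, against 5.76 and 6.10 in replicate 1. For these 4 genes the replicate numbers did not overlap.

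FLT1, the VEGF receptor that also traps the ligand, differed by 0.52 (interval 0.17 to 0.87) and did not pass after adjustment (limma adjusted p = 0.122). ENG, a co-receptor for BMP and TGF-beta ligands, differed by 0.33 (interval 0.05 to 0.60) and did not pass either (limma adjusted p = 0.197). EGFL7, a secreted factor of endothelium, differed by 0.29 (limma adjusted p = 0.319). For EGFL7 the difference was 0.47 with TBBD and 0.11 with DMSO.

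Of the 3 transcription factors among the endothelial genes, ERG was higher in replicate 2, with 6.39 and 6.31 with TBBD and DMSO, against 5.66 and 5.53 in replicate 1. Its difference was 0.75 ± 0.11 (SE, limma adjusted p = 0.0199). SOX18, a factor of lymphatic and blood vessel development, differed by 0.05 (interval -0.37 to 0.46), and its sign was not the same in the 2 treatments, at 0.40 with TBBD and -0.31 with DMSO. The related factor SOX7 differed by 0.40 (limma adjusted p = 0.207), and rested on 4 probesets, since 6 others carry the neighbouring gene PINX1 as well.

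**Figure D2:**
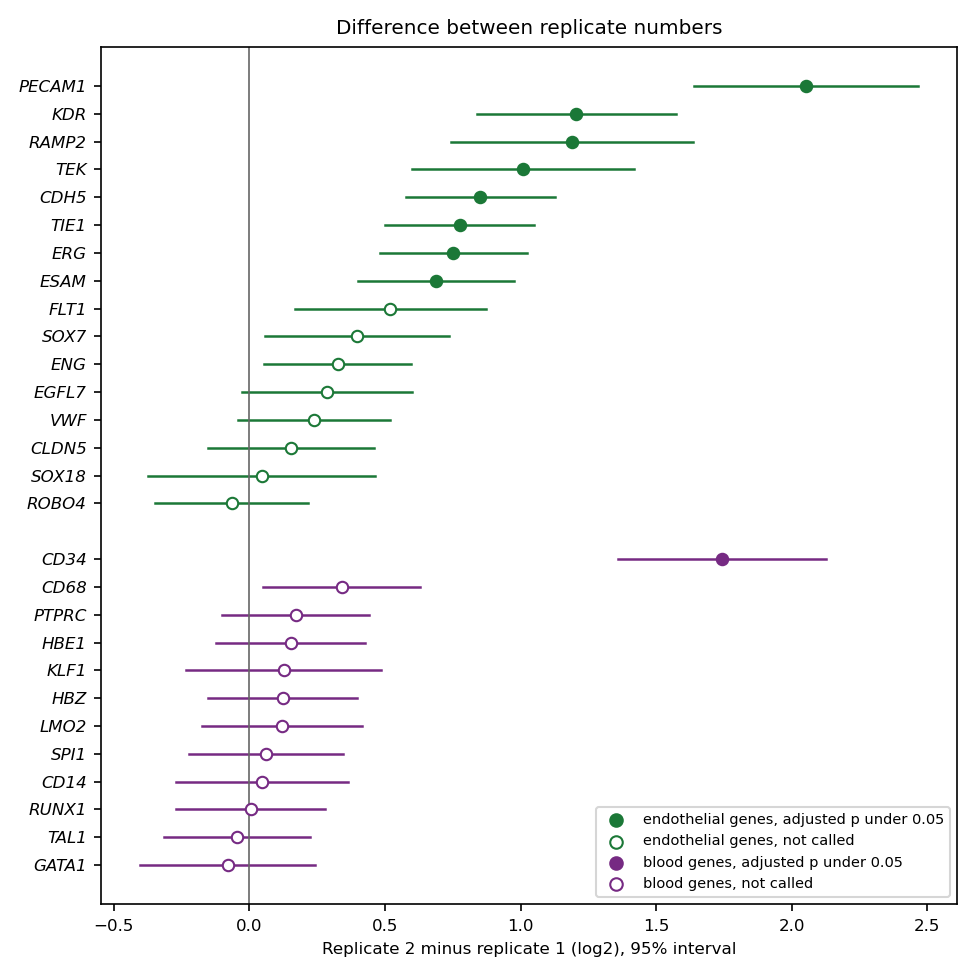
Replicate 2 minus replicate 1 on the log2 scale for each measured gene, ordered by size within the endothelial (green) and blood (purple) genes. Lines are 95% confidence intervals from limma and filled points have an adjusted p under 0.05, which 8 endothelial genes and CD34 reached.

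Both replicate 2 arrays lay above both replicate 1 arrays for 12 of 16 endothelial genes and 4 of 12 blood genes, where 25.1% of all genes did so. Within treatments the median endothelial difference between the numbers was 0.72 with TBBD and 0.60 with DMSO. Over all genes the medians were 0.017 with TBBD and -0.021 with DMSO. For 12 of the 16 endothelial genes the difference was larger with TBBD, and the share of all genes was not counted. This is the same contrast as TBBD minus DMSO compared between the numbers, given below, and not a separate observation. The calls depended on single arrays, in fits that drop the treatment term because 3 arrays leave no room for it. The count of 8 became 4 without TBBD replicate 1 (PECAM1, KDR, TIE1 and ERG) and 4 without TBBD replicate 2 (PECAM1, KDR, TIE1 and RAMP2). It became 6 without DMSO replicate 1, where CDH5 and ESAM were lost, and 9 without DMSO replicate 2, where FLT1 was gained. The test has 1 residual degree of freedom and takes most of its estimate of spread from the other genes.

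CD34 had the largest difference of the 12 blood genes. It had 7.59 with TBBD and 7.02 with DMSO in replicate 2, against 5.54 with TBBD and 5.59 with DMSO in replicate 1. The difference in signal was 1.74 ± 0.16 (SE, limma adjusted p = 0.00343), and the numbers did not overlap. CD34 was called with each array left out, as were PECAM1, KDR and TIE1.

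The other 11 blood genes did not pass. PTPRC (CD45), the phosphatase of nearly all white blood cells, had 5.45 and 5.42 with TBBD and DMSO in replicate 2, against 5.26 and 5.27 in replicate 1, a difference of 0.17 (interval -0.10 to 0.44). Of the factors of blood formation, RUNX1 differed by 0.0047 (interval -0.27 to 0.28), TAL1 by -0.05, LMO2 by 0.12 and GATA1 by -0.08. The red cell factor KLF1 differed by 0.13, and the embryonic globin genes HBE1 and HBZ by 0.15 and 0.12. The myeloid factor SPI1 differed by 0.06 and the monocyte receptor CD14 by 0.05. CD68, a lysosomal protein abundant in macrophages, differed by 0.34 (interval 0.05 to 0.63, limma adjusted p = 0.205). The widest of these intervals, for KLF1, ran from -0.23 to 0.49, and the highest upper limit was 0.63, for CD68. For each of these 11 genes a difference in signal the size of that of CD34, 1.74, lay outside the interval. Where signals lie near background, a difference in signal may understate one in RNA, so the intervals do not bound RNA.

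No detection call was used here, so which genes were expressed is unknown. As a rough guide, the signals of 348 olfactory receptor genes, whose expression is not expected here, had a median of 5.40 and a 95th percentile of 5.66, although probes differ in how strongly they bind. All 4 arrays lay below that level for PTPRC, TAL1, HBE1, HBZ and CD14. For PECAM1, TIE1 and CD34 the 2 replicate 2 arrays lay above it and the 2 replicate 1 arrays below, so their differences in signal may understate the difference in RNA and are given with no fold. The called genes ERG and ESAM lay below it on 1 array, DMSO replicate 1, at 5.53 each. CDH5, KDR, TEK, EGFL7, ROBO4, SOX18, FLT1, ENG and RAMP2 lay above it on all 4 arrays, as did RUNX1, KLF1, LMO2 and CD68. The blood genes thus lay on both sides of this guide. Of the 12 measured, 5 stayed below it on all 4 arrays and 4 stayed above it. GATA1 and SPI1 passed the level on 1 array each.

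Single probesets showed how evenly a gene's difference ran along it. On KDR, 30 of 31 probesets had both replicate 2 arrays above both replicate 1 arrays, with probeset differences from 0.71 to 1.66. On CDH5 16 of 16 did so, on TEK 22 of 26, on PECAM1 4 of 4 and on RAMP2 4 of 4. Of all probesets with 1 symbol, 21.2% did so. On TIE1 13 of 24 probesets and on ERG 10 of 16 were separated in that way, with ERG probesets from -0.99 to 2.34. CD34 had 10 of 12 separated upward and 1 downward, with differences from -0.26 to 3.51.

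FLT1, which was not called, had 14 of 28 probesets separated upward and 0 downward, and 27 of 28 had a difference above 0. VWF had 20 of 47 separated upward and 4 downward. Among blood genes, PTPRC had 9 of 37 separated upward and RUNX1 3 of 17, with 4 of 17 downward. Probesets of a gene share the same RNA and are not replicates. Tested singly, 0 of 247035 probesets passed limma's adjusted threshold between the numbers, and 27829 had an unadjusted p under 0.05. Of the 390 probesets of these genes, 136 had an unadjusted p under 0.05, 132 of them higher in replicate 2.

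**Figure D3:**
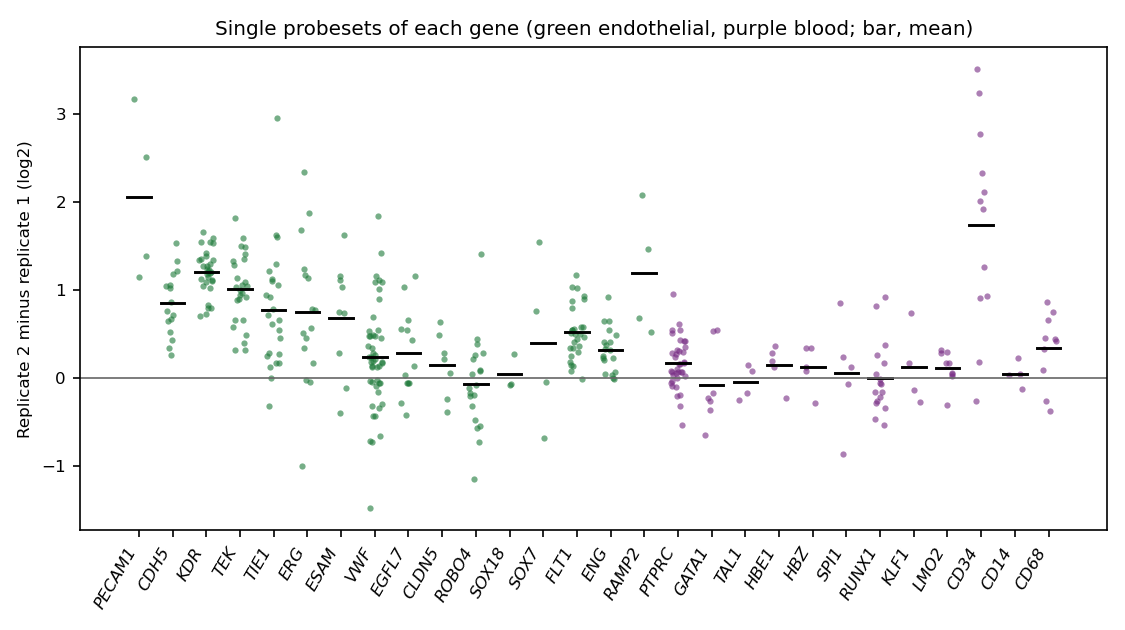
Replicate 2 minus replicate 1 (log2) of every probeset of the 28 measured genes, with endothelial genes in green, blood genes in purple and a black bar at each gene's mean. KDR probesets lie between 0.71 and 1.66, all above 0, whereas ERG, VWF and CD34 probesets spread to both sides of 0.

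TBBD was compared with DMSO in the same limma fit over all genes, with the treatment as the only term. None of the 28 genes passed, and 0 of all genes did (0% of 18640, with 139 at an unadjusted p under 0.05). Among the 28 genes 0 had an unadjusted p under 0.05. The median difference was 0.10 over the endothelial genes and -0.01 over the blood genes. The difference between the numbers enters the spread of this fit. For KDR the TBBD minus DMSO difference of 0.18 had an interval from -1.27 to 1.63 in this fit.

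Within a number, each TBBD array can be compared with its DMSO array. In replicate 2, 15 of 16 were higher with TBBD, with a median of 0.32, where 53.2% of all genes were higher. In replicate 1, 6 of 16 were higher, with a median of -0.05, where 45.2% of all genes were higher. TBBD minus DMSO was 0.55 in replicate 2 and -0.16 in replicate 1 for PECAM1, and 0.46 and -0.10 for KDR. It was 0.35 in replicate 2 and -0.34 in replicate 1 for TEK, 0.45 and -0.34 for RAMP2, and 0.57 and -0.05 for CD34. Genes of other lists were also mostly higher with TBBD in replicate 2: 15 of 15 mesenchyme and matrix markers, 10 of 11 mural cell markers, 11 of 13 visceral endoderm markers and 25 of 31 further endothelial surface genes. In replicate 1 the counts were 10 of 15, 5 of 11, 11 of 13 and 14 of 31. Pluripotent cell markers were higher for 2 of 13 in each number. The part of these other cells in the endothelial values was not tested. With 1 array a side, neither these differences nor the difference between the numbers could be tested.

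**Figure D4:**
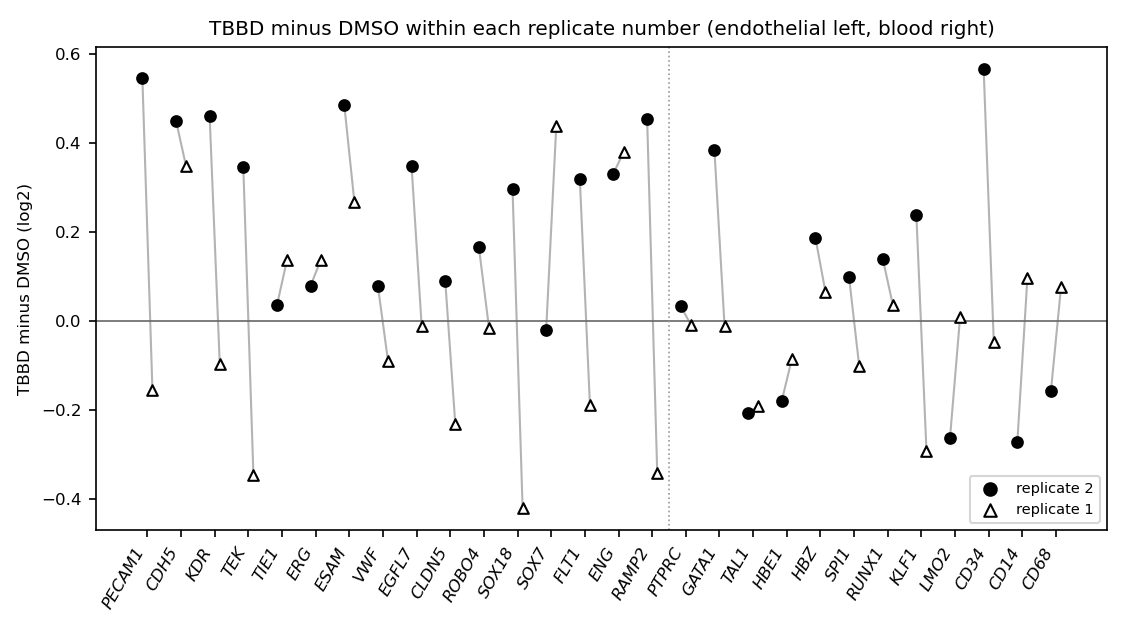
TBBD minus DMSO on the log2 scale within replicate 2 (filled circles) and within replicate 1 (open triangles), with a line joining the values of a gene. In replicate 2, 15 of 16 endothelial genes lie above 0, and in replicate 1, 6 of 16 do.

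The genes higher with TBBD in both numbers were 5 of 16 endothelial genes, CDH5, TIE1, ERG, ESAM and ENG, where 21.5% of all genes were. For CDH5 the difference was 0.45 in replicate 2 and 0.35 in replicate 1, and for ESAM 0.49 and 0.27. ENG had 7.15 and 6.85 with TBBD, against 6.82 and 6.47 with DMSO, in replicates 2 and 1. ENG was the only endothelial gene with both TBBD arrays above both DMSO arrays, which held for 10.5% of all genes. Its difference was 0.36 ± 0.18 (SE), a value that did not pass (interval -0.11 to 0.82, limma adjusted p = 1). That fit has no term for the replicate number. With the number as a further term in limma, the SE was 0.11 for ENG, 0.12 for CDH5 and 0.12 for ESAM. The unadjusted limma p-values were then 0.0173, 0.0108 and 0.0172, and none of these genes passed after adjustment. On ENG, 10 of 19 probesets had both TBBD arrays above both DMSO arrays, where 13% of all probesets with 1 symbol did.

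Among the blood genes both directions were found. In replicate 2, 7 of 12 were higher with TBBD, with a median of 0.07, and in replicate 1, 5 of 12, with a median of -0.01. HBZ and RUNX1 had both TBBD arrays above both DMSO arrays, as did 10.5% of all genes, with differences of 0.13 and 0.09. TAL1 had both TBBD arrays below both DMSO arrays, as did 1940 of all 18640 genes, at -0.20 (interval -0.48 to 0.09). None of the 3 passed (limma adjusted p = 1 for each).

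Further lists hold other genes of vessels and blood. For comparison, 2.3% of all genes were called higher in replicate 2 and 1.21% lower. Of 31 further endothelial surface and junction genes, 7 were called higher in replicate 2 and 0 lower. They included CD93, a surface lectin-like receptor, at 1.69 ± 0.19 (SE), the clotting regulator gene THBD at 1.37 ± 0.16 and the adhesion gene ICAM2 at 1.05 ± 0.13. Of 26 genes of VEGF, angiopoietin, Notch and apelin signalling, 4 were called higher, among them CALCRL at 1.43 ± 0.14, the lymphatic growth factor gene VEGFC at 0.78 ± 0.12 and the Notch target HEY1 at 0.75 ± 0.12. The apelin receptor gene APLNR, expressed in early mesoderm, was called lower, with 8.20 and 8.10 with TBBD and DMSO in replicate 2 against 9.54 and 9.86 in replicate 1, a difference of -1.55 ± 0.14 (SE, limma adjusted p = 0.00303).

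Of 20 transcription factor genes of endothelium and blood-forming endothelium, 4 were called higher in replicate 2, among them MEF2C at 1.22 ± 0.13 (SE), the venous factor gene NR2F2 at 1.11 ± 0.12 and the ETS factor gene FLI1 at 0.91 ± 0.12. GATA2, a factor of blood progenitors that is also active in endothelium and trophoblast, was called lower at -0.93 ± 0.14. Of 25 further red cell and platelet genes 1 was called higher, KEL, a blood group antigen, at 0.80 ± 0.12, and 1 lower, the carbonic anhydrase gene CA2, at -0.92 ± 0.14. Of 19 further myeloid and lymphoid genes 2 were called higher, LAPTM5 at 0.67 ± 0.12 and TYROBP at 0.57 ± 0.11. The medians of these 5 lists were 0.24 for the surface genes, 0.15 for signalling, 0.22 for factors, -0.02 for red cells and platelets, and -0.0039 for white cells.

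In these lists no gene passed for TBBD against DMSO in limma. ACVRL1, the receptor that acts with ENG, differed by 0.45 ± 0.17 (SE), with 6.68 and 6.32 with TBBD against 6.17 and 5.95 with DMSO in replicates 2 and 1. ETV2, which starts the endothelial program in the mouse embryo, differed by 0.35 ± 0.12, with 5.58 and 5.53 with TBBD against 5.29 and 5.12 with DMSO. For both genes both TBBD arrays lay above both DMSO arrays, which held for 10.5% of all genes. Neither passed after adjustment (limma adjusted p = 1). TM4SF18 differed by 0.43 ± 0.20, the platelet genes GP1BA and GP9 by -0.41 ± 0.13 and 0.31 ± 0.11, and the ligand gene APLN by -0.32 ± 0.14. ETV2, GP1BA and GP9 lay below the olfactory receptor level of 5.66 on all 4 arrays, so whether they were expressed is unknown.

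**Figure D5:**
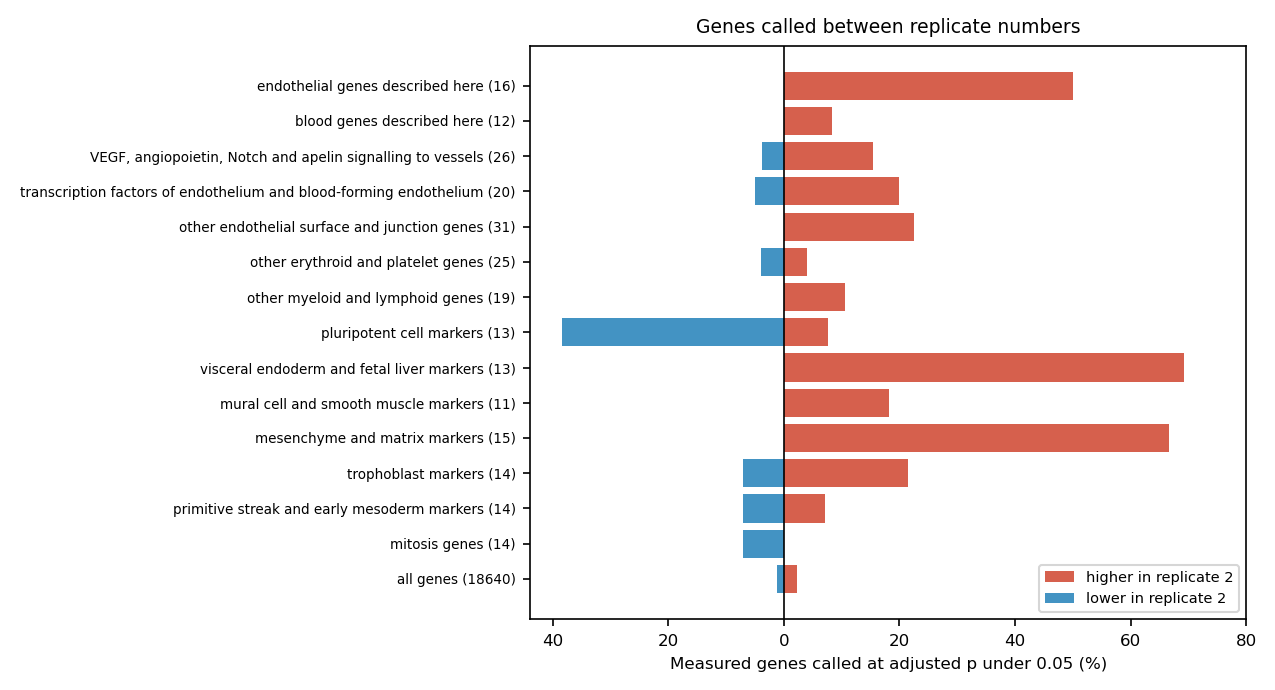
Share of measured genes called at a limma adjusted p under 0.05 between the replicate numbers, higher in replicate 2 to the right and lower to the left, for each gene list with its number of measured genes and for all genes at the bottom. The endothelial genes reach 50% higher and all genes 2.3%, while visceral endoderm and mesenchyme markers reach 69.2% and 66.7%.

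Markers of other cell types differed between the numbers as well. Of all genes, 2.3% were called higher in replicate 2 and 1.21% were called lower. Visceral endoderm and fetal liver markers were called higher in replicate 2 for 9 of 13, among them AFP at 2.43, and their summed linear signal was 2044 with TBBD and 1646 with DMSO, against 654 and 594 in replicate 1. Mesenchyme and matrix markers were called higher for 10 of 15, mural cell markers for 2 of 11, and trophoblast markers for 3 of 14 with 1 lower. Of 14 primitive streak and early mesoderm markers 1 was called higher and 1 lower. Their median difference was -0.41, 11 had a lower mean in replicate 2, and the numbers did not overlap for 7 that were lower and 2 that were higher. Among all 18640 genes, 4830 were lower and 4670 were higher without overlap. Of 14 mitosis genes 1 was called lower and 0 higher. All 14 had a lower mean in replicate 2, with a median of -0.39 and no overlap for 11. Pluripotent cell markers were called lower for 5 of 13 with SOX2 higher, and their summed signal was 2181 with TBBD and 2715 with DMSO, against 3234 and 3623 in replicate 1. The summed signal of the 16 endothelial genes was 2842 with TBBD and 2215 with DMSO in replicate 2, against 1416 and 1461 in replicate 1. Such sums weigh bright genes most, here KDR, and 8 of the 16 genes were not called. The part of these other cell types in the endothelial difference was not tested.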

How the data were processed

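Trizol-extracted RNA was labelled with biotin and hybridised to 4 Affymetrix Human Gene 1.0 ST arrays, per the labels. The authors deposited 1 log2 value per probeset and array, made with RMA per the submitters' processing notes; the sources used here give neither its version and settings nor the genome build. Values, which reach 13.8, have the range of a log2 scale. The table held 247312 probesets, and 277 with a placeholder cell were left out. Of all probesets 219181 carried 1 symbol. Median log2 signals lay between 6.39 and 6.42. The number of arrays limits the precision.

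Older symbols were updated through a RefSeq gene table, which changed none of the 31 names. Log2 values were averaged per gene and tested with limma 3.58.1 in R 4.3.3, two-sided, adjusted by Benjamini-Hochberg over 18640 genes at 0.05. TBBD against DMSO used the treatment as the only term, and replicate 2 against replicate 1 kept the treatment as a term. Errors are limma's SE and intervals are 95%. Medians over lists were not tested. Python 3.11.15 (pandas 2.3.3, numpy 2.4.6) made the summaries and matplotlib 3.10.9 the figures. On simulated arrays with independent noise and 18640 genes, the fit recovered 97% of 67 genes changed 2-fold between the numbers and 25.4% of 67 between treatments. It also wrongly called 31 of 18440 unchanged genes between the numbers and 5 of 18440 between treatments. Between the numbers it recovered 100% of 67 genes changed 4-fold and 100% of 66 changed 8-fold. The 31 were therefore a far larger share of the simulated calls than of the unchanged genes. The measured arrays need not match that noise.

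The genes and lists were chosen with earlier results of these data known. Every one of the 31 genes is named. From each other list the rule named up to 3 called genes per direction and up to 2 with the largest TBBD minus DMSO difference on at least 3 probesets. Not all of these are given here. Alternatives covered normalization, the median over probesets, filters, the test's prior, terms and thresholds, single probesets and each array left out.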

Additional observations from a re-analysis of the deposited data

How the results depend on the processing

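Between the replicate numbers 653 genes were called, and 1001 without the treatment term, 1310 at an adjusted p under 0.1, 0 on single probesets and from 368 to 685 with 1 array left out. The 8 endothelial calls became 4 among the 9320 brightest genes, where 7 of the 16 genes were left, and ran from 4 to 9 with 1 array left out. TIE1 was not called with the median over probesets (adjusted p = 0.0899) and ESAM not without the treatment term (adjusted p = 0.0705). The endothelial median of 0.60 between the numbers was 0.52 with the median over probesets, 0.72 among the 12426 brightest genes, 0.85 among the 9320 brightest, and from 0.43 to 0.73 with 1 array left out. The blood median of 0.12 was 0.0907 after quantile normalization again, 0.0938 after median centring, 0.0097 with the median over probesets, and 0.23 among the 9320 brightest genes. For TBBD against DMSO 0 genes passed under each alternative. The endothelial median of 0.10 ran from -0.24 to 0.48 and the blood median of -0.01 from -0.12 to 0.0939 with 1 array left out, fits in which treatment and number are unequal by construction; 15 of 16 endothelial differences changed sign in at least 1 of them. The number as a replicate block left the medians at 0.0974 and -0.0135 and called 0 genes. Of all 18640 genes, 496 had an unadjusted limma p under 0.05 with the block, against 139 without it. Among the 496 were 3 of the 16 endothelial genes, CDH5, ESAM and ENG, and 0 of the 12 blood genes. The SE of the KDR difference was 0.155 with the block and 0.564 without. Deviations from the treatment means correlated at 0.566 across genes between arrays of the same number, a hint from the data and not from the labels.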

Other observations

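Values of 4 further genes of the vessel and blood lists, named by their TBBD minus DMSO difference, are given here by replicate number. LCP1, an actin-bundling protein of white blood cells, had 7.80 with TBBD and 7.98 with DMSO in replicate 2, and 8.38 with TBBD and 7.52 with DMSO in replicate 1. SOX17, a factor of endoderm and of arterial and blood-forming endothelium, had 6.19 with TBBD and 6.04 with DMSO in replicate 2, and 5.45 with TBBD and 6.17 with DMSO in replicate 1. CD93 had 7.54 with TBBD and 6.68 with DMSO in replicate 2, and 5.44 with TBBD and 5.39 with DMSO in replicate 1. TYROBP, a signalling adaptor of myeloid cells, lay lower with TBBD by 0.48 in replicate 2 and by 0.47 in replicate 1, and its difference of -0.47 ± 0.28 (SE) did not pass in limma. None of these differences within a number could be tested.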
